A study of Mus musculus with 15 samples.

Results

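This report describes 437 genomic regions of mouse B cell lymphoma that carried a peak of histone H3 lysine 4 methylation in lymphomas whose Kmt2d was targeted by a short hairpin (sh-Kmt2d) and had none in lymphomas with an empty vector (EV). Peaks of 6 lists, 3 per group, were merged where they overlapped by at least 1 base. A merged region was taken when at least 2 of the 3 sh-Kmt2d lists had a peak in it and none of the 3 EV lists did, on the 19 autosomes. The 437 regions were 1.11% of all 39519 merged autosomal regions. They were chosen by the presence and absence of peaks in these 6 lists, so their number, height and score are given as a description, with no test.

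The cells of all groups were B220-enriched (CD45R, a B cell surface marker) by magnetic beads from mouse lymphoma tumours and were not cultured. For ChIP, the antibody recognised the mono- and the dimethyl form of that lysine (H3K4me1/2). The first number of the list titles was 87 for the 3 EV lists, 103 for sh-Kmt2d list 1 and 110 for sh-Kmt2d lists 2 and 3, so that title number and vector cannot be told apart. RNA was sequenced from 4 EV and 5 sh-Kmt2d libraries. The hairpin sequence, the strain and the age of the mice are not given in the labels used here, and nothing in them says that each sample came from its own animal.

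H3K4me1 and H3K4me2 lie on nucleosomes of enhancers and on the flanks of promoters, where H3K4me3 takes the centre. Kmt2d (also Mll4) is a large methyltransferase that places H3K4me1 at enhancers together with Kdm6a and other subunits of its complex, and its human counterpart is among the genes most often mutated in follicular and diffuse large B cell lymphoma. Lower Kmt2d is known mainly for loss of the mark at enhancers. The regions described here are those in which the lists differ in the opposite direction.

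Kmt2d RNA was measured in every RNA library as a check of the labels. In CPM (counts scaled to library size with TMM factors) it stood at 498, 252, 491 and 94.3 in the EV libraries. In the sh-Kmt2d libraries it stood at 57.3, 46.7, 204, 18.8 and 9.76 CPM. The groups overlapped, because sh-Kmt2d RNA replicate 3 lay above EV RNA replicate 4. The EV mean was 334 ± 196 CPM (SD, n = 4), and the sh-Kmt2d mean was 67.2 ± 78.7 CPM (SD, n = 5). The mean log2 difference was -2.79 (two-sided exact permutation test, 126 arrangements, p = 0.0397). That test treated the libraries as independent. By the first number of its title, EV RNA replicate 1 belongs to 78, while EV RNA replicates 2 to 4 belong to 87. Number 103 covers sh-Kmt2d RNA replicates 1 to 3, and 110 covers replicates 4 and 5. No number is shared between the groups, so the test cannot tell vector from title number. Kmt2d RNA was at 46.7 to 204 CPM under 103, against 18.8 and 9.76 CPM under 110. Leaving out any 1 library other than sh-Kmt2d RNA replicate 3 gave an exact permutation p between 0.0536 and 0.0714, above the threshold of 0.05. The lowest Kmt2d value came from sh-Kmt2d RNA replicate 5, a library that stands apart, with 5925745 gene counts and a TMM factor of 0.536 against 0.999 to 1.12 in the others. Without it the log2 difference was -2.29 (exact permutation p = 0.0571). By their titles, 3 RNA libraries match a peak list. They are EV RNA replicate 4 (94.3 CPM, matching EV list 3), sh-Kmt2d RNA replicate 3 (204 CPM, matching sh-Kmt2d list 1) and sh-Kmt2d RNA replicate 4 (18.8 CPM, matching sh-Kmt2d list 3). Among these matched titles, the one labelled sh-Kmt2d with title number 103 had more Kmt2d RNA than the EV one, and every statement on sh-Kmt2d list 1 below rests on its label.

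All 7 B cell genes looked at were measured in every RNA library, with a summed level of 10094 to 11411 CPM in EV and 10898 to 33612 CPM in sh-Kmt2d. The upper end is sh-Kmt2d RNA replicate 5 alone, and without it the highest sum was 14767 CPM. The members did not move together in that library. Cd79a and Cd79b, the signalling chains of the B cell receptor, were at 9757 and 19915 CPM, against EV means of 1221 and 1939. Ptprc, the gene of B220, was at 105 CPM there and at 674 CPM in sh-Kmt2d RNA replicate 4, against an EV mean of 1708. The summed level of 5 T cell genes was 24.1 to 32.9 CPM in EV and 35.4 to 107.7 CPM in sh-Kmt2d (up to 89.6 without replicate 5). Most of that difference lay in Cd3g, a chain of the T cell receptor complex, with means of 7.29 CPM in EV and 42.1 CPM in sh-Kmt2d. Cd4 went the other way (13.1 and 4.97 CPM), as did Cd8a (2.06 and 0.794 CPM), and Cd3e stood at 2.89 and 3.67 CPM. The summed level of 5 macrophage genes was 129.4 to 444.8 CPM in EV and 114 to 188.9 CPM in sh-Kmt2d (up to 160.6 without replicate 5). The upper end in EV is EV RNA replicate 1 alone, with Csf1r at 127 CPM and Lyz2 at 199 CPM. In the other EV libraries Csf1r was at 22.6 to 31.8 CPM and Lyz2 at 59.7 to 93 CPM. None of these genes was at 0 in any library. Fewer cells of a type and less RNA per cell cannot be told apart in such bulk samples, and the part of other cells in the peak lists was not tested.

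The 6 lists were of like length. EV lists 1 to 3 held 37479, 35863 and 37127 peaks, and sh-Kmt2d lists 1 to 3 held 36227, 37100 and 34894. Peaks were narrower in sh-Kmt2d lists 1 and 3 (median width 630 and 614 bases) than in sh-Kmt2d list 2 (747) and the EV lists (733, 787 and 724). The peaks covered 27.3, 33.2 and 25.6 Mb of the autosomes in the sh-Kmt2d lists and 32.8, 33.8 and 32 Mb in the EV lists. Over peaks, width, score, height and covered length, no group difference passed (two-sided exact permutation test, 3 against 3 lists, p from 0.3 to 0.5, adjusted 0.5 for each of 5 measures, with 0.1 the smallest p that 3 against 3 allows). The part of these measures in the counts of regions was not tested.

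Regions found only in sh-Kmt2d were fewer than regions found only in EV by the mirrored rule, which gave 1530 regions or 3.87% of all. Most merged regions, 24407 of 39519, had a peak in all 6 lists. Of the 437 regions, 99 had a peak in all 3 sh-Kmt2d lists and 338 in 2 of them. The pair of sh-Kmt2d lists 1 and 2 gave 161 regions, lists 2 and 3 gave 132, and lists 1 and 3 gave 45. By list, 305 of the regions were in sh-Kmt2d list 1, 392 in list 2 and 276 in list 3, which is 1.06%, 1.22% and 1.01% of the regions in each of these lists. The list with the widest cover of the 3, sh-Kmt2d list 2, thus held most of the regions.

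The 2 counts moved with single lists. With 1 list left out, the rule asks for a peak in both lists that remain in that group, or for none in the 2 EV lists that remain. Without sh-Kmt2d list 1, 2 or 3 the sh-Kmt2d-only regions numbered 233, 150 and 259. Without EV list 2 or 3 they numbered 755 and 726, and without EV list 1 they numbered 565. The EV-only regions numbered 648, 929 and 876 without EV lists 1 to 3 and 3175 without sh-Kmt2d list 2. In each of these cases the sh-Kmt2d-only regions were the fewer, with a ratio to EV-only regions between 0.0472 and 0.872, against 0.286 with all lists. Leaving out an sh-Kmt2d list makes the sh-Kmt2d-only rule stricter and the EV-only rule looser, and leaving out an EV list does the reverse. These ratios are therefore shifted by the rule itself. With 1 list of each group left out, the sh-Kmt2d-only regions numbered 199 to 497 and the EV-only regions 695 to 2257. The count of 233 rests on the lists of title number 110 alone. With all lists in use, 132 regions were in both of these lists and not in list 1, and 99 were in list 1 too.

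**Figure D1:**
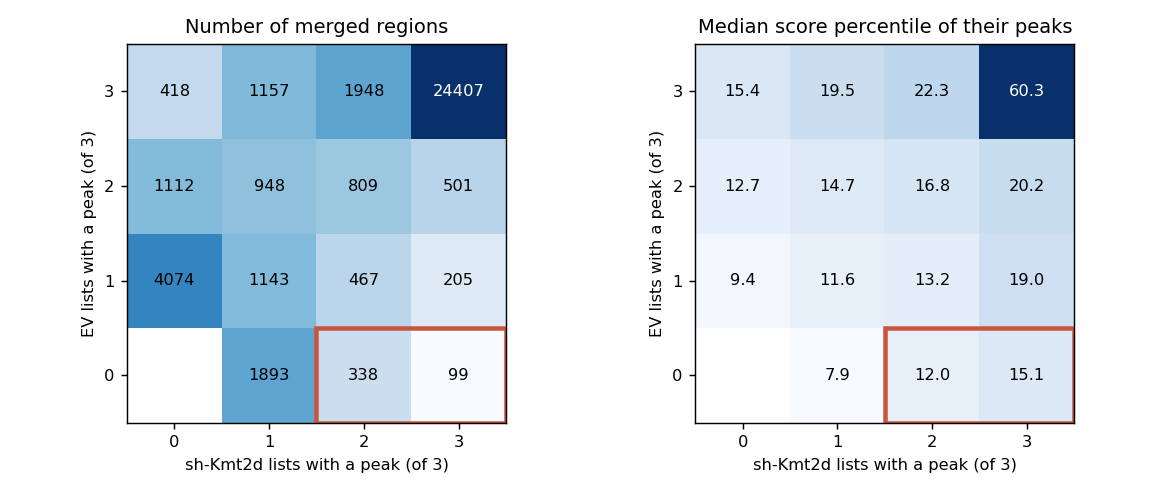
Merged autosomal regions by the number of sh-Kmt2d lists (x axis) and EV lists (y axis) that had a peak in them, as the number of regions (left, shaded on a log scale) and as the median score percentile of their peaks within their own list (right). The outlined cells are the sh-Kmt2d-only regions, 338 in 2 lists and 99 in 3 lists, with median percentiles of 12 and 15.1 against 60.3 for regions in all 6 lists.

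The regions were short. Their median width was 326 bases (quartiles 219 and 441, range 105 to 2152), and 426 of the 437 were under 1 kb wide. Regions in all 6 lists had a median width of 1168 bases. Width runs from the first to the last base of all joined peaks, so it tends to grow with the number of lists. The EV-only regions resembled the sh-Kmt2d-only ones, with a median width of 354 bases. Within the set, regions in all 3 sh-Kmt2d lists were wider (median 447 bases) than those in 2 lists (290.5 bases). This comparison, too, is between unlike numbers of joined lists. A second peak of the same list inside the region was seen in 19 of the 437.

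Their peaks were low. The lists have no header, so the names height, score and position used here are readings of their columns from the values. The height is a whole number given for each peak. In sh-Kmt2d list 1 the peaks of these regions had a median height of 25, against 48 for all peaks of that list. In sh-Kmt2d list 2 the medians were 27 and 56, and in list 3 they were 25 and 46. The lowest height of any peak in those lists was 17, 16 and 15. Most of the peaks therefore stood close to the lower end of their own list.

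The peak score, from another column of the lists, was also low in these regions. Ranked within its list, the median region lay at the percentile 13.0 (quartiles 7.75 and 18.9), and in 40 of the 437 the median over its lists was above the percentile 25. A further column is negative, with no peak of any list above -15, and its median was -18.8, -19.1 and -18.5 in the peaks of these regions against -34.7, -38.1 and -32.7 over all peaks of sh-Kmt2d lists 1 to 3. A region without a listed peak may hold signal under that limit, which the lists do not show. The EV-only regions had a median percentile of 13.8, so that low score was shared by both sets. Just outside the rule, 1893 regions with a peak in 1 sh-Kmt2d list and no EV list had a median percentile of 7.91 and a median width of 148 bases. The 672 regions with a peak in 2 or 3 sh-Kmt2d lists and in 1 EV list had 14.9 and 424 bases. The members thus lay between these neighbours in score and width, and the 3 sets differ in the number of lists joined, with which width grows.

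**Figure D2:**
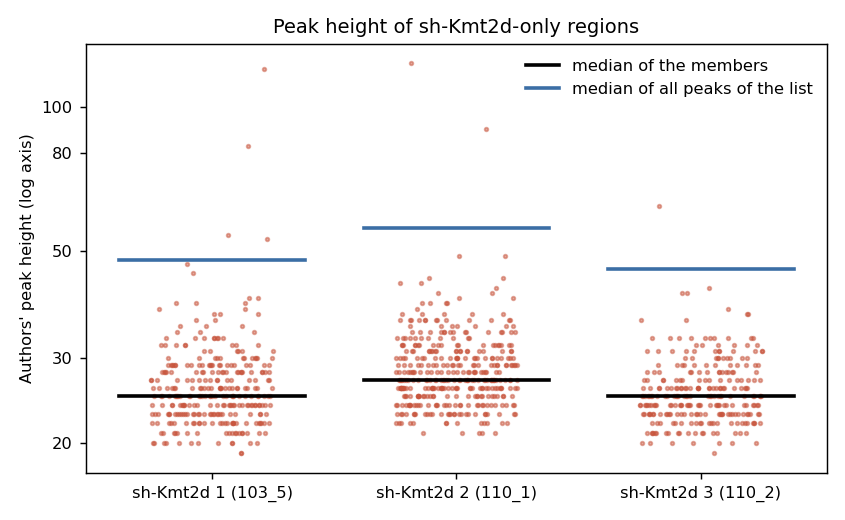
Height listed for the highest-scored peak of each sh-Kmt2d-only region in sh-Kmt2d lists 1 to 3 (log axis, 1 point per region, spread sideways for legibility), with the median of the members' peaks in black and the median of all peaks of the list in blue. Medians of 25, 27 and 25 lie below the list medians of 48, 56 and 46, and few points reach above the blue lines.

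Each list also gives a position within the peak, taken here as its highest point. In the 338 regions with a peak in 2 sh-Kmt2d lists, these positions lay a median of 68 bases apart. In the 99 regions in all 3 sh-Kmt2d lists they spanned a median of 172 bases. A span over 3 lists can only equal or exceed that over 2 of them, so these 2 medians are not like measures. Regions in all 6 lists had a span of 115 bases over the 3 sh-Kmt2d lists, so that members in 3 lists had the larger span although they were narrower. The positions lay within 100 bases of each other in 253 of the 437 regions.

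To measure the regions in lists that had not chosen them, 1 sh-Kmt2d and 1 EV list were held out and the rule was applied to the other 4 lists. There are 9 such pairs of held-out lists, and each gave between 199 and 497 regions. A peak in the held-out sh-Kmt2d list was found in 34.1% to 77.3% of the regions (median 43.7%). A peak in the held-out EV list was found in 22.8% to 52.6% (median 37). Of all 39519 merged regions, sh-Kmt2d lists 1 to 3 had a peak in 28684, 32022 and 27195. For EV lists 1 to 3 these numbers were 32092, 32445 and 31882. Lists 1 and 3 of sh-Kmt2d thus held fewer regions than any EV list, which the held-out shares do not take into account. The sh-Kmt2d share was the higher in 7 of the 9 pairs, with exact binomial 95% intervals that did not overlap, and it was the lower in 2. Every pair that held out sh-Kmt2d list 2 was among the 7. The 9 results share lists and regions and are no replicates. The intervals take the regions of a list as independent and cover counting error alone, not the spread between lists. Intervals that do not overlap thus do not separate the vectors.

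The held-out share depended on the list. With sh-Kmt2d list 2 held out, 71.9%, 77.3% and 76.1% of the regions had a peak in it, against 24.6%, 37% and 49.5% in EV lists 1, 2 and 3. With sh-Kmt2d list 1 and EV list 2 held out, the order turned. Of 492 such regions 168 (34.1%, 95% interval 30% to 38.5%) had a peak in the sh-Kmt2d list and 259 (52.6%, 48.1% to 57.1%) in the EV list. With sh-Kmt2d list 3 and EV list 3 held out, the shares were 43.5% and 47.9% of 497 regions, and their intervals overlapped. A region called in both of 2 sh-Kmt2d lists and in neither of 2 EV lists was hence found in the held-out EV list in at least 22.8% of cases.

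The EV-only regions were found again more often in their own group. Their share in the held-out EV list was 50.1% to 80.2% (median 61.9%) and higher than in the held-out sh-Kmt2d list in 9 of 9 pairs. In the held-out sh-Kmt2d list the share was 4.91% to 6.76% for list 3, 21.2% to 29.9% for list 1 and 56.3% to 62.6% for list 2. Of the sh-Kmt2d lists, list 2 thus had the highest held-out shares for sh-Kmt2d-only and EV-only regions alike. With EV list 3 and sh-Kmt2d list 2 held out, the 2 shares were 61.9% and 61.2% and their intervals overlapped. The difference between the 2 rules was not tested.

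**Figure D3:**
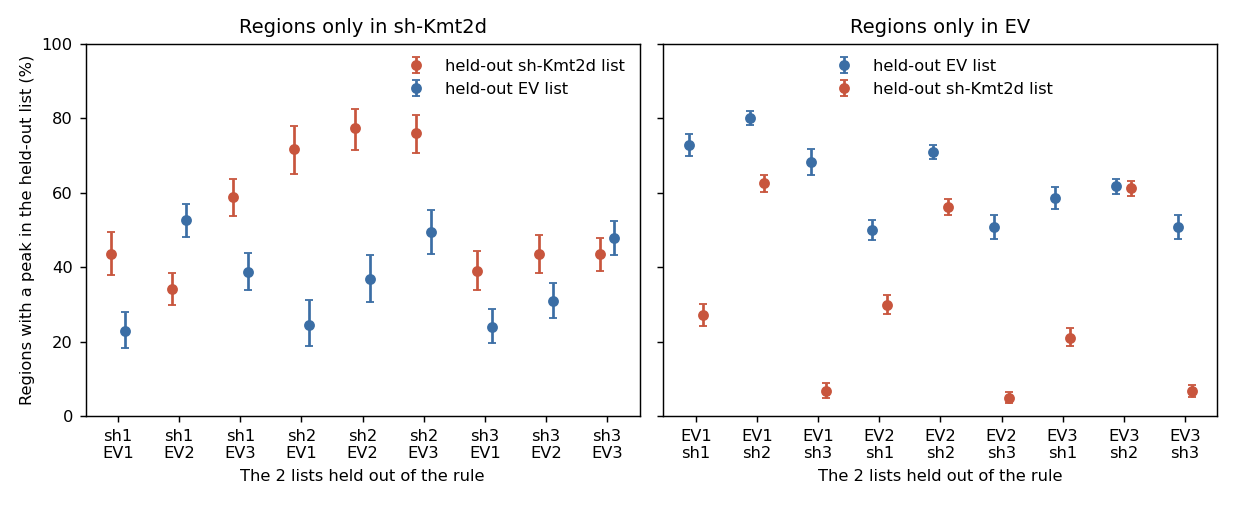
Share of regions with a peak in a list that the rule had not used (y axis, percent), for each of the 9 pairs of held-out lists (x axis, sh1 to sh3 for sh-Kmt2d and EV1 to EV3 for EV lists 1 to 3), with exact binomial 95% intervals. Regions only in sh-Kmt2d (left) were found in 34.1% to 77.3% in the held-out sh-Kmt2d list and in 22.8% to 52.6% in the held-out EV list, and regions only in EV (right) in 50.1% to 80.2% in the held-out EV list.

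Many of the regions lay beside an EV peak. The nearest peak of any EV list was within 1 kb of 149 regions (34.1%), between 1 and 10 kb from 124, between 10 and 100 kb from 122 and over 100 kb from 42 (9.61%). The median distance was 4847 bases. EV-only regions lay a median of 3938 bases from the nearest sh-Kmt2d peak, 444 of 1530 (29%) within 1 kb and 36 (2.35%) over 100 kb away. When peaks up to 1000 bases apart were joined, 299 sh-Kmt2d-only and 1077 EV-only regions were left. The nearest region in all 6 lists was a median of 8256 bases away, and 230 of the 437 regions had one within 10 kb. For EV-only regions that median was 7511 bases, and 851 of 1530 had one within 10 kb. Regions in all 6 lists lay nearer to one another, a median of 2637 bases from the next.

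The 42 regions over 100 kb from every EV peak were called isolated here, a class set after the distances were seen. Of these, 37 were in sh-Kmt2d list 1, 35 in list 2 and 26 in list 3, and 14 were in all 3 lists (33.3%). That share was 16.1%, 26.6% and 23% in the classes within 1 kb, from 1 to 10 kb and from 10 to 100 kb, and 22.7% over all members. The median width of isolated regions was 351.5 bases and their median percentile 14.0, close to the values of the whole set. Among regions found in 1 list alone, the share over 100 kb from the other group was 8.85% for sh-Kmt2d list 1, 2.58% for list 2 and 4.51% for list 3, and 2.18% to 3.35% for the EV lists. Among regions of 1 list alone, that share was thus largest in sh-Kmt2d list 1. Of the 36 EV-only regions over 100 kb from every sh-Kmt2d peak, 32 were in EV list 1, 23 in list 2 and 27 in list 3. Why the share of isolated regions differed between the 2 sets was not tested. The region farthest from an EV peak, chr12:44123002-44123261, was 1169450 bases away and had heights of 24 and 23 in sh-Kmt2d lists 1 and 2.

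**Figure D4:**
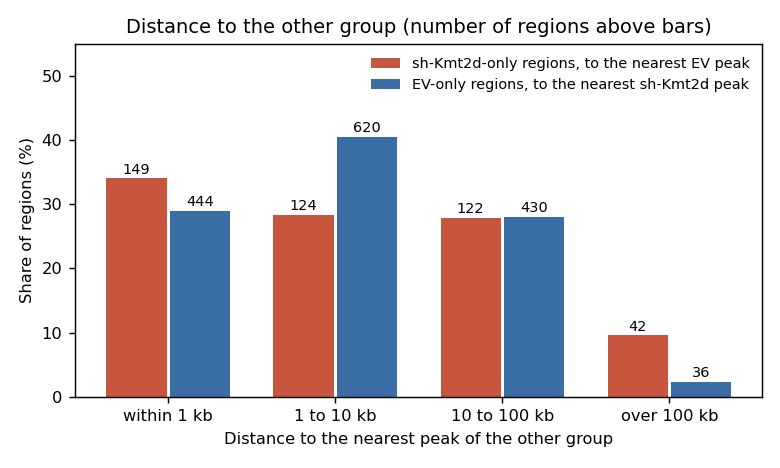
Share of regions (y axis, percent, number of regions above each bar) by distance to the nearest peak in any list of the other group (x axis). Of the sh-Kmt2d-only regions 149 lay within 1 kb and 42 over 100 kb from an EV peak, and of the EV-only regions 444 and 36 in the same order from an sh-Kmt2d peak.

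All coordinates are those of the lists, build mm9, and the regions were not joined to genes, so whether they are exonic, intronic or between genes is not analysed here. Every autosome held members, from 14 on chromosome 8 to 37 on chromosome 1. As a share of the merged regions of a chromosome, they ran from 0.622% on chromosome 7 (15 of 2411, exact binomial 95% interval 0.349% to 1.02%) to 1.67% on chromosome 18 (19 of 1138, 1.01% to 2.6%). The intervals of these extremes overlapped slightly. Chromosome 3, with more regions, stood at 1.54% (33 of 2143, 1.06% to 2.16%), and its interval lay above that of chromosome 7. These chromosomes were picked by their values from all autosomes, and the differences were not tested. Chromosome 3 had 33 sh-Kmt2d-only regions for 62 EV-only ones, and chromosome 8 had 14 for 89. On every autosome the EV-only regions were the more numerous.

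Most windows of 1 Mb that held a member held no other. In such windows, 289 held 1 region, 57 held 2, 8 held 3 and 2 held 5. The median distance from a region to the next one of the set was 1056170 bases. Of the 437, 74 had another within 100 kb, 39 within 10 kb and 25 within 1 kb. For EV-only regions, which are more numerous, 621 of 1530 had another within 100 kb, 221 within 10 kb and 87 within 1 kb. Whether the regions lay closer together than randomly placed ones was not tested. The windows with 5 were on chromosomes 11 and 3.

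On chromosome 10, each of the 5 merged regions in the window from 56 to 57 Mb was in sh-Kmt2d lists alone, and 3 of them were members. This window was singled out after its values were seen. The first, chr10:56097075-56097907, had heights of 39, 27 and 22 in sh-Kmt2d lists 1 to 3 and lay 147789 bases from the nearest EV peak. The second, chr10:56431753-56432853, had heights of 54 in list 1 and 31 in list 3, no peak in list 2, and 482467 bases to the nearest EV peak. The third, chr10:56759776-56760763, had heights of 47, 35 and 31 and lay 407083 bases from the nearest EV peak. It was among the 5 regions of highest score that were in all 3 lists, with percentiles of 43.1, 25.6 and 29.1. The gaps between the 3 members were 333.8 and 326.9 kb. Height was largest in sh-Kmt2d list 1 in all 3.

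On chromosome 15, 3 members stood within 4.515 kb and over 100 kb from any EV peak. The outer 2 were singled out after their values were seen. The middle one, chr15:38836295-38837607, was the second widest of all members (1312 bases) and had heights of 53, 33 and 38 in sh-Kmt2d lists 1 to 3. Its percentiles were 48, 23.7 and 41.7. The one after it, chr15:38838494-38839551, had heights of 34, 23 and 30 in the same order. The one before it, chr15:38835036-38835801, had 31 in list 1 and 26 in list 3 and no peak in list 2. No EV list had a peak within 103663 bases of this group, and no other merged region lay among its members. As on chromosome 10, list 1 had the greatest heights.

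On chromosome 11, 4 members fell within 7.619 kb, among peaks that EV lists had too. In order, they were chr11:86164680-86164910, chr11:86165751-86166383, chr11:86166613-86166827 and chr11:86171929-86172299. The second had heights of 25, 33 and 32 and the fourth 29, 41 and 33 in sh-Kmt2d lists 1 to 3. The first (26 and 24) and the third (31 and 24) were in sh-Kmt2d lists 2 and 3. The nearest EV peaks lay 1069, 508, 64 and 1059 bases from the 4 members in that order. The span held 7 merged regions in all, 1 of them in all 6 lists. The remaining member of that 1 Mb window, chr11:86563673-86563968, lay 391374 bases away.

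On chromosome 3, 4 members fell within 15.55 kb between chr3:135961027-135961221 and chr3:135976286-135976578, and 1 more stood at chr3:135525763-135526117. None was in all 3 sh-Kmt2d lists. Their heights were between 20 and 29, and their score percentiles between 1.45 and 15.8, so that all 5 were near the lower end of the lists. On chromosome 2, 3 members stood within 3.812 kb with heights of 22 to 29, and on chromosome 9, 4 within 104.9 kb. These groups, too, were picked with their values in view.

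**Figure D5:**
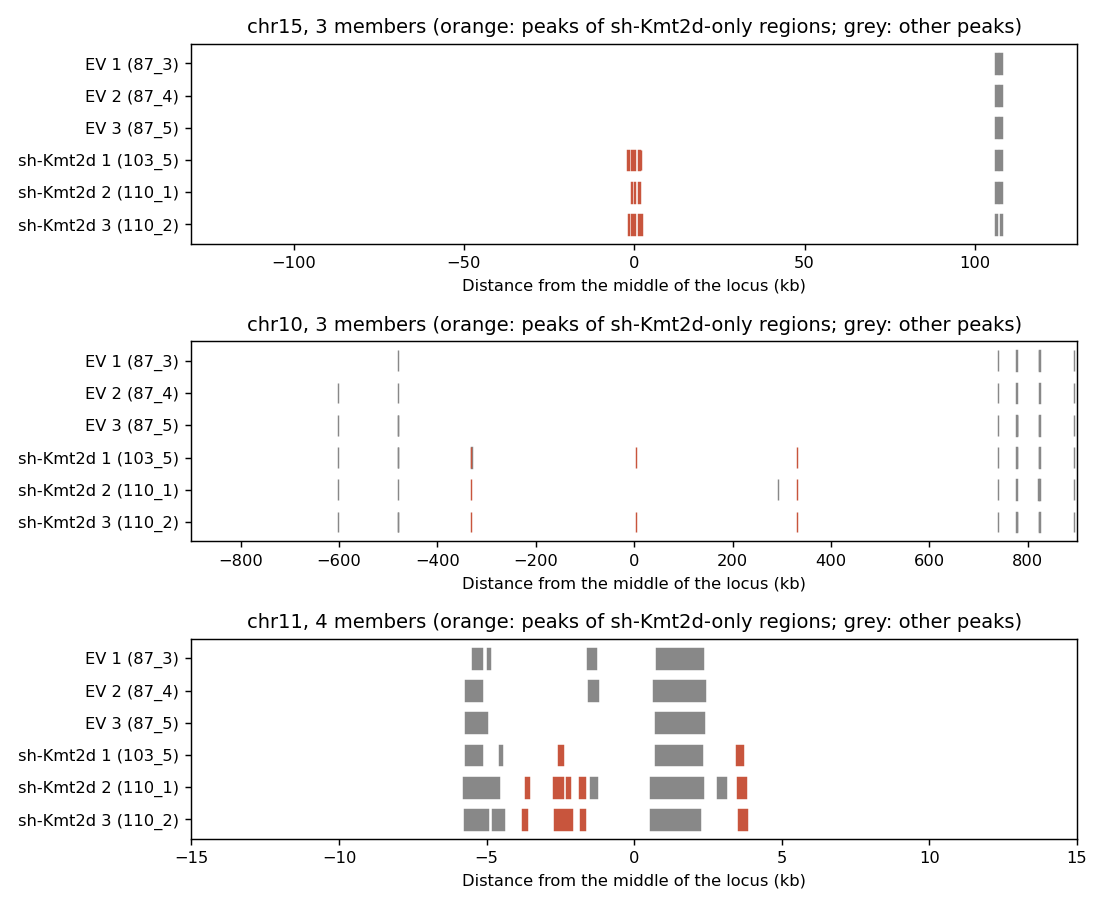
Peaks of the 6 lists (rows) around 3 groups of sh-Kmt2d-only regions, drawn by distance from the middle of the group in kb (x axis, thin outlines keep narrow peaks visible), with peaks of the sh-Kmt2d-only regions in orange and all other peaks in grey. The groups on chromosomes 15 and 10 have no EV peak within 103663 and 147789 bases, whereas the 4 regions on chromosome 11 have EV peaks 64 to 1069 bases away.

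Of the other members of highest score in all 3 sh-Kmt2d lists, chr13:41994905-41995728 led, with heights of 36, 49 and 36 and percentiles of 35.2, 48.4 and 40.7. EV list 1 had its nearest peak 3104 bases away and EV list 2 at 73728 bases. The region chr19:11165417-11165750 had heights of 26, 34 and 27, with EV peaks 1020 to 1037 bases away. The next in this order, chr19:29450700-29451570, had heights of 40, 49 and 33 and was named after its values were seen. In these members of highest score, the heights are under the list medians of 48, 56 and 46, except in chr15:38836295-38837607, which passed the median height of sh-Kmt2d list 1.

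In 2 members the score was above the list median in every list that had them, and both were in sh-Kmt2d lists 1 and 2 and not in list 3. The widest member, chr8:131210004-131212156 (2152 bases), had heights of 83 and 90, and EV peaks lay 301 to 535 bases from it. The region chr5:152453769-152454507, named after its values were seen, had heights of 120 and 123 and percentiles of 97.3 and 96.4. EV lists 1 and 3 had peaks 311 and 315 bases from it, and EV list 2 had none within 281407 bases. The members with the highest peaks thus had an EV peak close by, 301 and 311 bases away.

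Of the remaining widest members, chr4:149794630-149795864 had heights of 31, 42 and 30 in sh-Kmt2d lists 1 to 3 and EV peaks at 4095 to 4429 bases. The region chr14:16760642-16761932 had 33 and 31 in lists 2 and 3, with EV peaks at 316 to 654 bases. The region chr16:38730008-38731218 had 25 and 41 in lists 1 and 2, with EV peaks at 11537 to 15454 bases. The distances show that wide members occurred both beside EV peaks and far from them.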

How the data were processed

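Peak lists came from 3 EV and 3 sh-Kmt2d ChIP libraries and gene counts from 4 EV and 5 sh-Kmt2d RNA libraries, grouped by the transduction label. The authors deposited raw counts per gene (the submitters' processing notes name HTSeq 0.6.0, CASAVA 1.8.2 and mm9). Total gene counts ran from 5925745 to 29284830 per library. Each deposited peak list has 11 columns without a header, with 1 list per library. Used here were the coordinates, a negative value (column 4), a score (column 5), a position within the peak and a height signal (column 7). Width was taken as the end minus the start of a peak. No source used here names the peak caller, its threshold or an input control, and ChIP depth is unknown. The column meanings were inferred from the values. Scores and heights are the authors' and were used to describe and rank peaks within a list.

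Peaks were merged with Python 3.11.15 (pandas 2.3.3, numpy 2.4.6), and the merging was tested on simulated lists. The simulated peaks were wide and their loci far apart, so narrow peaks with close neighbours, as many members have, were not tried. Distances are from edge to edge. CPM used TMM factors of edgeR 4.0.16 in R 4.3.3 over 13349 genes that passed filterByExpr. Named regions are the 5 widest, the 5 in all 3 sh-Kmt2d lists with the highest lowest score percentile, and the members of the fullest 1 Mb windows. Only 2 windows were named by that rule, because 8 tied for the third place. Other named regions, and the distance classes, were chosen after their values were seen. Members and lists were chosen with earlier results of these data known. RNA of genes near the regions was not analysed here, and no sequence is printed, since no mm9 genome or annotation was used here.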

Additional observations from a re-analysis of the deposited data

Results flagged for a closer look

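A Dixon gap test was applied to log CPM, with 0.5 CPM added, in 36 groups of RNA libraries (Kmt2d and 17 marker genes in EV and in sh-Kmt2d). Its critical values were 0.829 for 4 libraries and 0.71 for 5. In 4 groups a single library stood far from the others, where chance gives about 1 in 20. The choice depends on the log scale. Cd79b at 19915 CPM in sh-Kmt2d RNA replicate 5 and Csf1r at 127 CPM in EV RNA replicate 1 were not among the 4. Cd22, an inhibitory B cell receptor, was lowest in sh-Kmt2d RNA replicate 5 at 851 CPM, and Cd4 was lowest there at 2.20 CPM. Csf1r, the receptor of the macrophage growth factor, was lowest in sh-Kmt2d RNA replicate 1 at 7.13 CPM. Mertk, a macrophage receptor, was highest in EV RNA replicate 1 at 24.6 CPM. None of these libraries matches a peak list by title.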

How the results depend on the processing

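An overlap of at least 100 bases, equal numbers of top-scored peaks per list and the use of all chromosomes kept the 3 results (sh-Kmt2d-only count, EV-only count and their ratio) within 1.5 times. So did joining peaks up to 1000 bases apart. With the peaks above the median score of each list the counts were 213 and 673, and with a peak in all 3 lists of a group 99 and 418. With the peaks above the median score of the sh-Kmt2d lists against all EV peaks they were 2 and 13018 (ratio 0.000154), and with the peaks above the median score of the EV lists against all sh-Kmt2d peaks, added after seeing the data, 9457 and 0, which follows from shortening the lists of 1 group. Without single lists the counts ran from 150 to 755 and from 648 to 3175, and the ratio from 0.0472 to 0.872. Over the pairs of held-out lists, shares ran from 34.1% to 77.3% in sh-Kmt2d and from 22.8% to 52.6% in EV lists. Without single RNA libraries the Kmt2d log2 difference ran from -3.38 to -2.29. As a paired comparison with a replicate block on the second title number (3 pairs of titles 87 and 103, added after seeing the data, with nothing in the labels that pairs them) it was -1.47 (exact sign-flip p = 0.5). ChIP depth is unknown, so weak signal under the listing limit was not detectable in any list. The planned windows for RNA of genes near the regions were not run, because no mm9 annotation was used here.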

Other observations

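The X chromosome, which the rule leaves out, had 11 sh-Kmt2d-only regions among 1228 merged regions (0.896%) and 37 EV-only regions (3.01%). Peaks on the Y chromosome numbered 10, 10 and 0 in EV lists 1 to 3 and 0, 7 and 6 in sh-Kmt2d lists 1 to 3, so that both groups held lists with and without them.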
